A study of Mus musculus with 12 samples.

Results

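The genes described here are 32 genes of fatty acid uptake and oxidation, taken as a fixed list of mouse symbols. The list was chosen with earlier results of these data known. All 32 were found among the 55357 gene identifiers of the count table, and all 32 passed the filter on low counts that left 15804 genes for testing. Poly(A) RNA of 12 hearts of male C57BL/6J-background mice was sequenced, with 3 libraries in each of 4 groups, to ask what loss of Cd163, the receptor by which macrophages take up haemoglobin, does to a heart under pressure overload. KO TAC hearts came from Cd163-/- mice whose transverse aorta was tied (transverse aortic constriction, TAC) at 8 weeks of age, and KO sham hearts from Cd163-/- mice that had the operation without ligation. WT TAC and WT sham hearts came from wild-type mice given the same operations. The labels give a 27-gauge needle and an age of 8 weeks at surgery for all 12 libraries. The labels name no cell type to which the knockout is restricted, and the sources used here do not give the time between surgery and collection. Levels are CPM, counts scaled to library size, with TMM factors that align the bulk of genes between libraries. A log2 fold change is given with ± SE from an edgeR quasi-likelihood fit of the 12 libraries, and a gene is said to have risen or fallen only where its Benjamini-Hochberg adjusted p over the 15804 genes was under 0.05. The labels do not tie the libraries to named animals, so a p-value covers the spread between libraries, which may be technical.

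The adult heart draws most of its energy from long-chain fatty acids. Lipoprotein lipase frees them from circulating triglyceride, CD36 and related carriers bring them into the muscle cell, acyl-CoA synthetases activate them, and the carnitine shuttle moves them into mitochondria. There the beta-oxidation spiral shortens them step by step and passes electrons through the electron transfer flavoprotein to the respiratory chain. Many of these genes are known targets of PPAR-alpha, ERR-alpha and their coactivator PGC-1-alpha, and lower levels of them are a known feature of the failing heart.

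Some libraries stood apart, and some counts of calls below change when they are left out. They were singled out by their values in these same data, so results without them are descriptions and no separate support. KO sham replicate 1 lay below both other KO sham libraries for 27 of the 32 genes and above both for 4. On the log2 scale it was nearer to the KO TAC mean than to the mean of the other KO sham libraries for 28 of them, as it was for 80.2% of 15501 tested genes with a count in every library. WT TAC replicate 1 lay below both other WT TAC libraries for 22 of the 32 genes and above both for 5, and was nearer to the KO TAC mean for 3. Total counts ran from 14150109 to 22602225 per library. Cd163 stood at 4.07, 3.68 and 3.47 CPM in KO TAC and 3.14, 4.60 and 4.50 CPM in KO sham libraries, against 29.1, 13.7 and 29.5 CPM in WT TAC and 16.1, 15.6 and 14.0 CPM in WT sham libraries, so each KO library lay below each WT library. The cardiomyocyte marker Myh6, the alpha myosin heavy chain, ran from 8526 to 21580 CPM across the libraries.

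The 32 genes differed widely in level. In WT sham hearts, per kilobase of the longest coding transcript, Fabp3 averaged 2779 CPM per kb, Lpl 1079, Ech1 735, Hadhb 549, Acadm 506 and Cd36 490. At the low end were Ucp3 at 11.5, Cpt1a at 8.94, Cpt1b at 3.31 and Acot1 at 3.04 CPM per kb. The same per-length scale in KO TAC hearts gave 1081 for Fabp3, 447 for Lpl, 464 for Ech1, 102 for Hadhb and 88.9 for Acadm. Between these groups Etfb went the other way, with 142 CPM per kb in KO TAC against 29.4 CPM per kb in WT sham hearts. The levels of Cpt1b and Etfb are uncertain, since each shares exonic bases with another gene on the same strand, as given below.

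Promoter windows from RefSeq (GRCm38.p6, 250 bases before to 50 after a gene's start) were found for 26 of the 32 genes, in 29 windows, and were searched on both strands for letters bound by factors known to act on these genes. The nuclear receptor core AGGTCA was in 7 of the 29 windows, those of 7 genes, and in 16.3% of all 32851 windows. The ERR-type TCAAGGTCA, which contains that core, was in none of the 29 and in 0.423% of all windows. The GC box GGGCGG was in 18 of the 29 windows, those of 17 genes, and in 35.7% of all windows. A match is a run of letters and not a shown binding site. The 4 windows printed are those of genes whose values follow, with the match in capitals. Acadvl is shown for the largest fold, and Hadha because its window overlaps that of Hadhb. Ucp3 and Pdk4 had the smallest p of the 32 in the interaction test below, where edgeR called neither with all 12 libraries.
Acadvl: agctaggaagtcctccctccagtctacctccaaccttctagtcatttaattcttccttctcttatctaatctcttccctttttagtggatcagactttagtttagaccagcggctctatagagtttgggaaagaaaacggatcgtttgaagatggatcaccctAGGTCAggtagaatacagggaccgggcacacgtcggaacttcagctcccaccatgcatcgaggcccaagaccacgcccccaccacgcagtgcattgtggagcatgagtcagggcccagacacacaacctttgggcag
Hadha: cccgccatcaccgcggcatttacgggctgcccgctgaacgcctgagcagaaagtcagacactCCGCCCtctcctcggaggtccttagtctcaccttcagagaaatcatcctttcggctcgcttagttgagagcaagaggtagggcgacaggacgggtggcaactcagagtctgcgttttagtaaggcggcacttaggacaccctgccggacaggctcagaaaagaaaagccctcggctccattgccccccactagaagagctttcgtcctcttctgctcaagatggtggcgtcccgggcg
Ucp3: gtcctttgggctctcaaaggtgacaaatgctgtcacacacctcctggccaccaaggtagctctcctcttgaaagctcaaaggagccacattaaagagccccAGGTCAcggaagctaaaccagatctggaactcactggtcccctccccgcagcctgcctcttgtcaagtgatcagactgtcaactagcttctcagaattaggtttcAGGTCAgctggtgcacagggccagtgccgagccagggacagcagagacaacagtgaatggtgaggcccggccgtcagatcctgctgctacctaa
Pdk4: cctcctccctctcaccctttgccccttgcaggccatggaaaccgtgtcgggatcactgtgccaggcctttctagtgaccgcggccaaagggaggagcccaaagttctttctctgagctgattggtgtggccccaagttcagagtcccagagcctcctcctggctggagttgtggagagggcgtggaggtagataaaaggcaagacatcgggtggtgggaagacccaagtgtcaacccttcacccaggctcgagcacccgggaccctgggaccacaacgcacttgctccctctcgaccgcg
The Acadvl window is chr11:70015379-70015678 on the minus strand, with AGGTCA starting 87 bases upstream of the gene's start. The Hadha window is chr5:30154931-30155230 on the minus strand, and its capitals are GGGCGG read on the other strand. In the GENCODE annotation (GRCm38) Hadha and Hadhb lie head to head with 85 bp between them, and their RefSeq windows share 228 bp. The Ucp3 window, chr7:100472741-100473040 on the plus strand, holds AGGTCA more than once, the first copy 149 bases upstream of the start. The Pdk4 window, chr6:5496229-5496528 on the minus strand, held 0 matches to AGGTCA.

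After TAC, KO hearts held less RNA of most of these genes than WT hearts. Of the 32 genes, 21 fell and 0 rose, where 11.7% of all tested genes fell and 8.63% rose. The median log2 fold change of the 32 was −1.26, against −0.02 over all tested genes, and 31 of the 32 were negative. Among the 1024 tested genes that average 100 CPM or more, which hold 23 of the 32, 25.7% fell and the median was −0.34. Every KO TAC library lay below every WT TAC library for 28 of the 32 genes and above every one for 1, where the background was 24.3% and 22.7% of all tested genes. In all, the 32 genes summed to 7384, 7011 and 6906 CPM in KO TAC libraries, against 14216, 19766 and 19262 CPM in WT TAC libraries, and the groups did not overlap. With library totals in place of TMM, which moved the median of all tested genes to −0.235, 25 of the 32 fell with a median of −1.47, while 3010 of all tested genes fell and 515 rose, against 1855 and 1364 with TMM. In a bulk sample fewer cells of a type and less RNA per cell cannot be told apart.

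The count of calls turned on single libraries far more than the fold changes did. Without any 1 of KO TAC replicates 1, 3 or 5, the counts of genes that fell were 0, 0 and 1, and without WT TAC replicate 3 or 5 they were 1 and 0. The calls over all genes shrank with them: in the same fits 21, 11, 167, 42 and 90 genes fell, against 1855 with all 12 libraries. The median log2 fold change over the 12 fits that each left out a library ran from −1.34 to −1.16. Without KO sham replicate 1, whose spread enters the shared error of the fit, 28 fell and 1, Etfb, rose, where 22.1% and 18.5% of 16196 tested genes did.

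**Figure D1:**
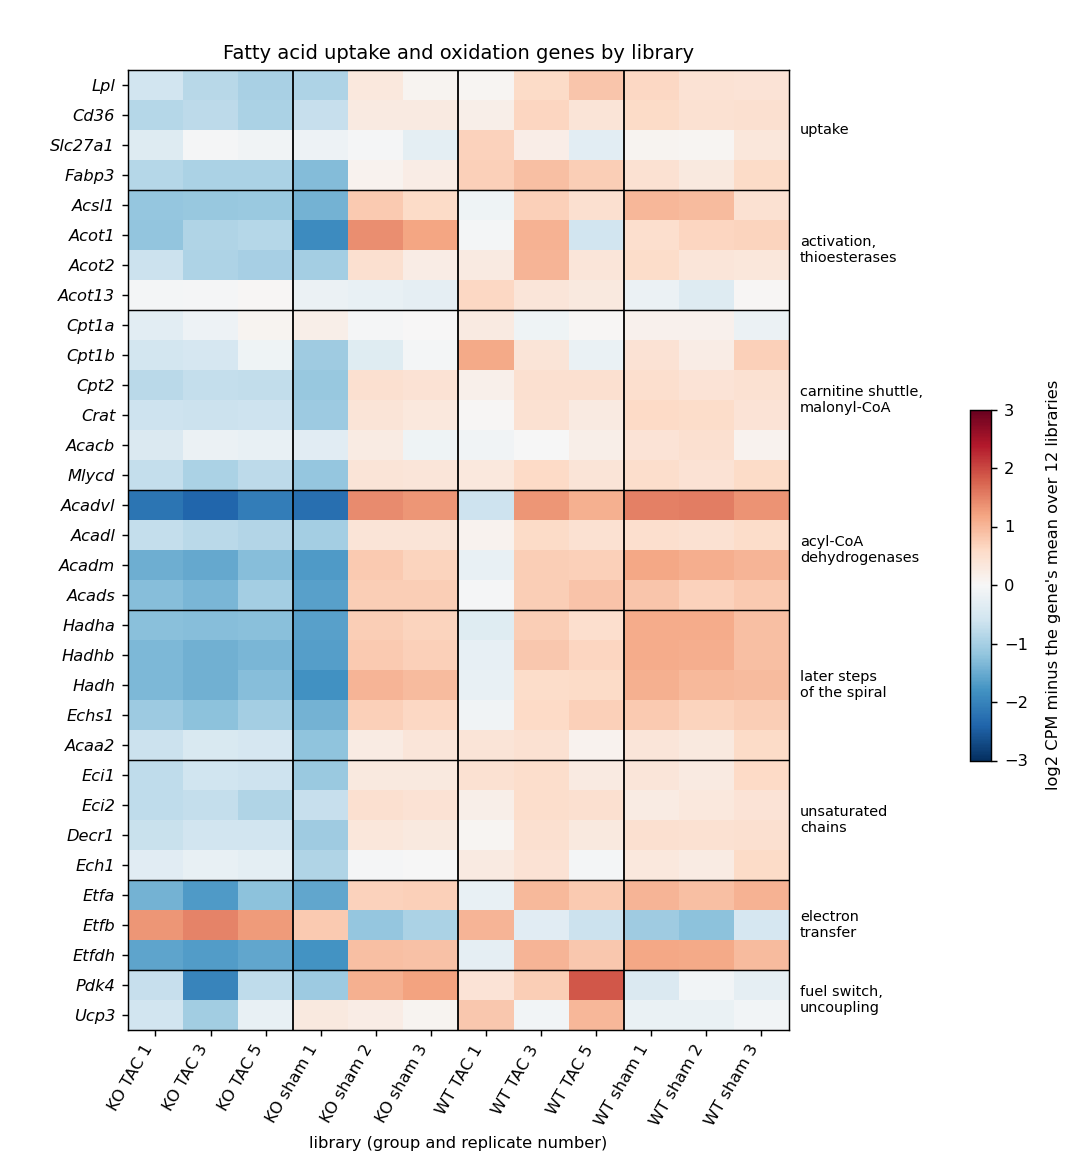
Each row is a gene, grouped by role, each column a library, and the colour is the log2 CPM of the gene minus its mean over the 12 libraries (blue lower, red higher). The KO TAC columns are blue for most rows, KO sham replicate 1 resembles them, WT TAC replicate 1 is paler than the other WT TAC columns, and the Etfb row runs the other way.

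**Figure D2:**
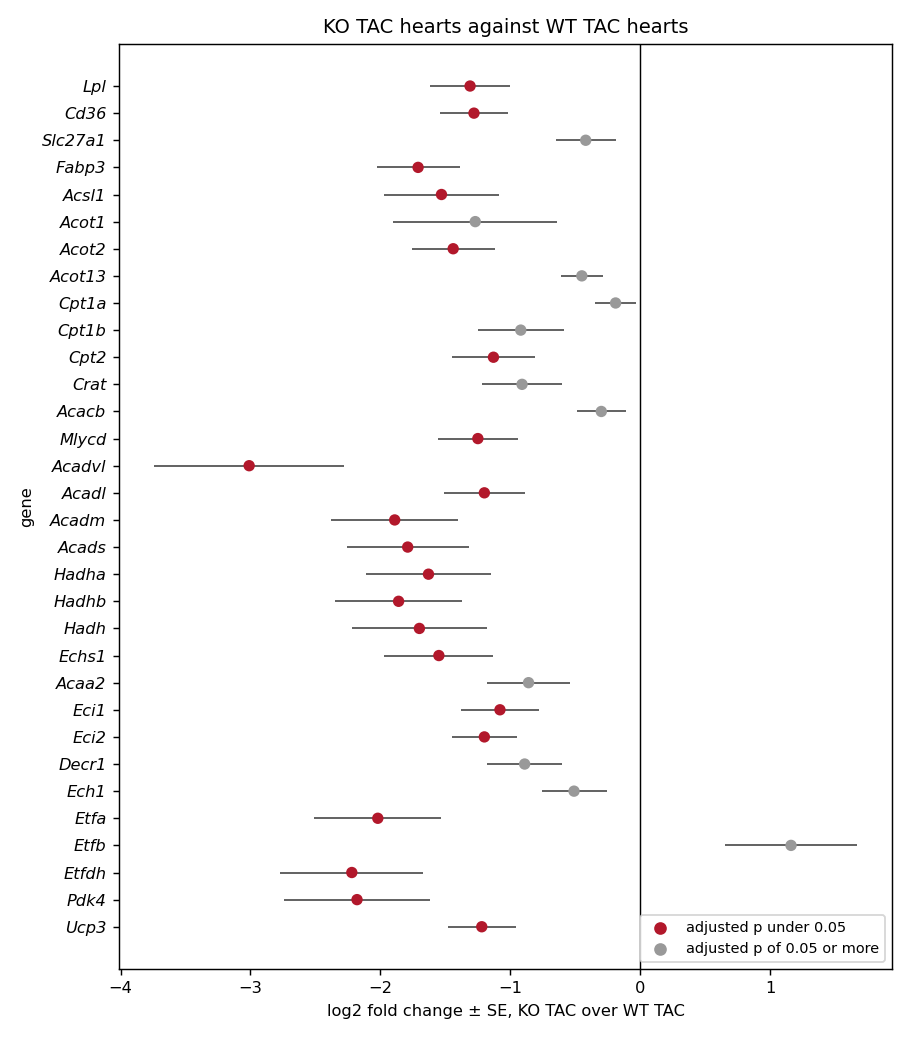
Points are log2 fold changes of the 32 genes in KO TAC over WT TAC hearts with bars of ± SE (3 libraries a group), red where the adjusted p was under 0.05. Acadvl lies farthest left at −3.01, and Etfb is the point to the right of 0, at 1.16.

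Of the 4 uptake genes, Lpl, Cd36 and Fabp3 fell in KO TAC hearts, and Slc27a1 did not pass the test. Fabp3, the heart-type carrier protein of fatty acids in the cytosol (ENSMUSG00000028773, chr4:130308595-130315463 in GRCm38), had 928, 869 and 871 CPM in KO TAC libraries and 685, 1815 and 1973 CPM in KO sham libraries. In WT TAC libraries it had 2770, 3162 and 2802 CPM, and in WT sham libraries 2307, 2044 and 2510 CPM. The KO TAC libraries all lay far below the WT TAC libraries, and KO sham replicate 1 lay below all KO TAC libraries. Its log2 fold change between KO and WT after TAC was −1.71 ± 0.32 (edgeR adjusted p = 0.0165). Cd36, the scavenger receptor that carries long-chain fatty acids across the cell membrane, had 647, 681 and 613 CPM in KO TAC and 728, 1420 and 1425 CPM in KO sham libraries. It had 1339, 1851 and 1537 CPM in WT TAC and 1761, 1611 and 1630 CPM in WT sham libraries, so the TAC groups did not overlap. That difference was −1.28 ± 0.26 (edgeR adjusted p = 0.0176). Lpl, the lipase of the capillary wall, averaged 1841 ± 273 CPM in KO TAC and 4548 ± 1165 CPM in WT TAC hearts (SD, n = 3 each), a log2 fold change of −1.31. Slc27a1, the fatty acid transport protein FATP1, ran from 103 to 130 CPM in KO TAC and from 107 to 215 CPM in WT TAC libraries, which overlap.

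Among the genes that activate fatty acids or release them from CoA, Acsl1 and Acot2 fell and Acot1 and Acot13 did not pass the test. Acsl1, the main long-chain acyl-CoA synthetase of the heart, averaged 165 ± 3.28 CPM in KO TAC and 477 ± 132 CPM in WT TAC hearts (SD, n = 3 each), a log2 fold change of −1.53. Acot2, a mitochondrial thioesterase, had 16.1, 13.2 and 12.7 CPM in KO TAC, 12.5, 35.1 and 29.3 CPM in KO sham, 30.3, 51.5 and 32.4 CPM in WT TAC and 36.9, 32.5 and 31.7 CPM in WT sham libraries. The KO TAC libraries and KO sham replicate 1 lay below all other libraries. The log2 fold change between KO and WT after TAC was −1.44 ± 0.32 (edgeR adjusted p = 0.021). Acot1, its cytosolic neighbour, ran from 2.00 to 2.49 CPM in KO TAC and from 3.05 to 9.35 CPM in WT TAC libraries. Over 1330 aligned bp the Acot1 and Acot2 transcripts were 94.3% identical, and 9.84% of the 150-base stretches of Acot1 also occur in Acot2, so the split of reads between them is uncertain. Acot13, a thioesterase associated with mitochondria, had 182, 186 and 195 CPM in KO TAC, 168, 163 and 157 CPM in KO sham, 294, 243 and 232 CPM in WT TAC and 167, 145 and 194 CPM in WT sham libraries. The WT TAC libraries were its highest.

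Of the 6 genes of the carnitine shuttle and of malonyl-CoA, Cpt2 and Mlycd fell in KO TAC hearts. Mlycd, which breaks down malonyl-CoA, the inhibitor of the shuttle's entry enzyme, had 30.8, 25.9 and 29.2 CPM in KO TAC and 22.5, 66.1 and 65.2 CPM in KO sham libraries. It had 62.4, 76.9 and 65.7 CPM in WT TAC and 73.2, 68.4 and 75.6 CPM in WT sham libraries. KO TAC hearts were lower without overlap, with a log2 fold change of −1.25 ± 0.31 (edgeR adjusted p = 0.025). Cpt2, the inner-membrane carnitine palmitoyltransferase, averaged 69.2 ± 2.01 CPM in KO TAC and 151 ± 19.3 CPM in WT TAC hearts (SD, n = 3 each). Crat, which makes acetylcarnitine, ran from 148 to 151 CPM in KO TAC and from 237 to 321 CPM in WT TAC libraries, with an edgeR adjusted p of 0.0546 for −0.91. Cpt1b, the muscle form of the entry enzyme, had 4.76, 4.85 and 6.29 CPM in KO TAC, 3.28, 5.42 and 6.70 CPM in KO sham, 15.1, 9.03 and 5.99 CPM in WT TAC and 9.37, 8.03 and 11.4 CPM in WT sham libraries. These values are uncertain, since 2744 of the 3372 exonic bp of Cpt1b in the GENCODE annotation also belong to Gm44502 on the same strand, which was given 0 counts. Cpt1a, the liver-type form, ran from 29.9 to 39.9 CPM in KO TAC and from 34.2 to 45.2 CPM in WT TAC libraries, with a log2 fold change of −0.19 ± 0.16. Acacb, which makes malonyl-CoA at the mitochondrion, had 160, 191 and 185 CPM in KO TAC, 170, 254 and 197 CPM in KO sham, 202, 214 and 244 CPM in WT TAC and 289, 300 and 232 CPM in WT sham libraries. Its mean was highest in WT sham hearts, though WT sham replicate 3 lay below KO sham replicate 2 and WT TAC replicate 5. Its difference between KO and WT after TAC, −0.30 ± 0.19, did not pass.

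All 4 acyl-CoA dehydrogenases, which take the first step of each turn of the spiral for chains of falling length, fell in KO TAC hearts. Acadvl, the very-long-chain enzyme (ENSMUSG00000018574, chr11:70010183-70015411), had 29.2, 25.8 and 31.7 CPM in KO TAC and 27.6, 356 and 335 CPM in KO sham libraries. In WT TAC libraries it had 86.8, 332 and 281 CPM and in WT sham libraries 378, 385 and 337 CPM. Here the 4 low libraries were the KO TAC ones and KO sham replicate 1, and WT TAC replicate 1 stood between. The log2 fold change was −3.01 ± 0.73 between KO and WT after TAC (edgeR adjusted p = 0.0244), an 8.06-fold lower level. Exons of Dvl2 on the other strand cover 1151 bp of the Acadvl locus, and the sources used here do not say whether counting used strand. Dvl2 had 1553 counts in all against 52949 for Acadvl. Acadm, the medium-chain enzyme, averaged 182 ± 18.0 CPM in KO TAC and 676 ± 223 CPM in WT TAC hearts (SD, n = 3 each), a log2 fold change of −1.89. Acads, for short chains, stood at −1.79, and Acadl, for long chains, at −1.20, both on the same scale. Acadvl therefore changed its level relative to Acadl: per 100 counts of Acadl there were 7.97, 7.51 and 9.68 counts of Acadvl in KO TAC libraries and 9.22 in KO sham replicate 1, against 13.3 in WT TAC replicate 1 and 34.0 to 46.7 in the other libraries.

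In the later steps of the spiral, Hadha, Hadhb, Hadh and Echs1 fell and Acaa2 did not pass. Hadha and Hadhb encode the alpha and beta subunits of the mitochondrial trifunctional protein, which works on long chains. Their promoter windows overlap, as given above. Hadhb (ENSMUSG00000059447, chr5:30155248-30184593) had 215, 200 and 211 CPM in KO TAC and 175, 936 and 901 CPM in KO sham libraries. In WT TAC libraries it had 459, 962 and 850 CPM and in WT sham libraries 1188, 1154 and 1029 CPM. The KO TAC libraries lay within a narrow range, and WT TAC replicate 1 lay between them and the other WT TAC libraries. Its log2 fold change was −1.86 ± 0.49 (edgeR adjusted p = 0.029), and that of Hadha −1.63 ± 0.48. The subunits kept close to equal counts, with 92.5 to 114 counts of Hadha per 100 of Hadhb over the 12 libraries. Hadh, the medium and short chain hydroxyacyl-CoA dehydrogenase, stood at −1.70, and Echs1, the short-chain enoyl-CoA hydratase, at −1.55. Acaa2, the thiolase, averaged 294 ± 20.5 CPM in KO TAC and 534 ± 66.7 CPM in WT TAC hearts (SD, n = 3 each), and its edgeR adjusted p was 0.0718 for −0.86.

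Of the 4 auxiliary enzymes that make unsaturated chains fit for the spiral, Eci1 and Eci2 fell, and Decr1 and Ech1 did not pass. Eci2, an enoyl-CoA isomerase of peroxisomes and mitochondria, had 36.5, 38.0 and 33.2 CPM in KO TAC, 38.2, 86.0 and 83.5 CPM in KO sham, 70.3, 90.1 and 86.8 CPM in WT TAC and 73.6, 77.7 and 82.6 CPM in WT sham libraries. The KO TAC libraries and KO sham replicate 1 again lay below all other libraries. The log2 fold change was −1.20 ± 0.25 between KO and WT after TAC (edgeR adjusted p = 0.0198). Eci1, the mitochondrial isomerase, stood at −1.08. Decr1, the dienoyl-CoA reductase, had an edgeR adjusted p of 0.0513 for −0.89. Ech1, another isomerase, had 566, 614 and 586 CPM in KO TAC, 381, 696 and 709 CPM in KO sham, 861, 962 and 685 CPM in WT TAC and 886, 850 and 1056 CPM in WT sham libraries. Its fold was the smallest of the 4, −0.51 ± 0.25, although no KO TAC library reached the lowest WT TAC library.

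The electron transfer genes moved apart. Etfa and Etfb encode the subunits of the electron transfer flavoprotein, which takes electrons from the acyl-CoA dehydrogenases, and Etfdh passes them on to ubiquinone. Etfa had 97.2, 81.1 and 112 CPM in KO TAC and 89.2, 423 and 427 CPM in KO sham libraries. It had 223, 509 and 447 CPM in WT TAC and 532, 490 and 537 CPM in WT sham libraries. Etfdh followed the same pattern, with 82.5, 77.5 and 83.9 CPM in KO TAC, 71.0, 465 and 454 CPM in KO sham, 205, 503 and 432 CPM in WT TAC and 551, 541 and 480 CPM in WT sham libraries. Between KO and WT after TAC Etfa stood at −2.02 ± 0.49 (edgeR adjusted p = 0.0236) and Etfdh at −2.22 ± 0.55 (edgeR adjusted p = 0.0249). Etfb ran the other way, with 123, 137 and 120 CPM in KO TAC, 84.0, 22.1 and 25.5 CPM in KO sham, 100, 38.8 and 31.6 CPM in WT TAC and 23.3, 20.9 and 34.7 CPM in WT sham libraries. The libraries with low Etfa were those with high Etfb: there were 108 to 169 counts of Etfb per 100 of Etfa in KO TAC libraries and 94.2 in KO sham replicate 1, against 44.8 in WT TAC replicate 1 and 4.26 to 7.63 in the other libraries. The difference of Etfb between KO and WT after TAC, 1.16 ± 0.51, did not pass (edgeR adjusted p = 0.113). Of the 1164 exonic bp of Etfb, 617 also belong to Gm45233 on the same strand, which was given 0 counts, so its level is uncertain.

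Pdk4, the kinase that turns off pyruvate dehydrogenase and so favours fatty acids over glucose, and Ucp3, a mitochondrial carrier of the uncoupling protein family that follows fatty acid supply, both fell in KO TAC against WT TAC hearts. Pdk4 had 113, 46.2 and 107 CPM in KO TAC and 85.9, 384 and 423 CPM in KO sham libraries. In WT TAC libraries it had 242, 304 and 657 CPM and in WT sham libraries 134, 171 and 152 CPM. It was 1 of 3 genes among the 32 that were higher in every WT TAC than in every WT sham library, where 13.4% of all tested genes were, and KO sham replicates 2 and 3 were also above all WT sham libraries. The log2 fold change between KO and WT after TAC was −2.18 ± 0.56 (edgeR adjusted p = 0.0278). Ucp3 had 21.1, 15.3 and 26.7 CPM in KO TAC, 38.6, 36.8 and 33.0 CPM in KO sham, 55.3, 29.5 and 62.7 CPM in WT TAC and 27.4, 27.4 and 29.7 CPM in WT sham libraries. For this gene KO sham replicate 1 did not stand apart from the other KO sham libraries. The log2 fold change between KO and WT after TAC was −1.22 ± 0.26 (edgeR adjusted p = 0.0197).

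**Figure D3:**
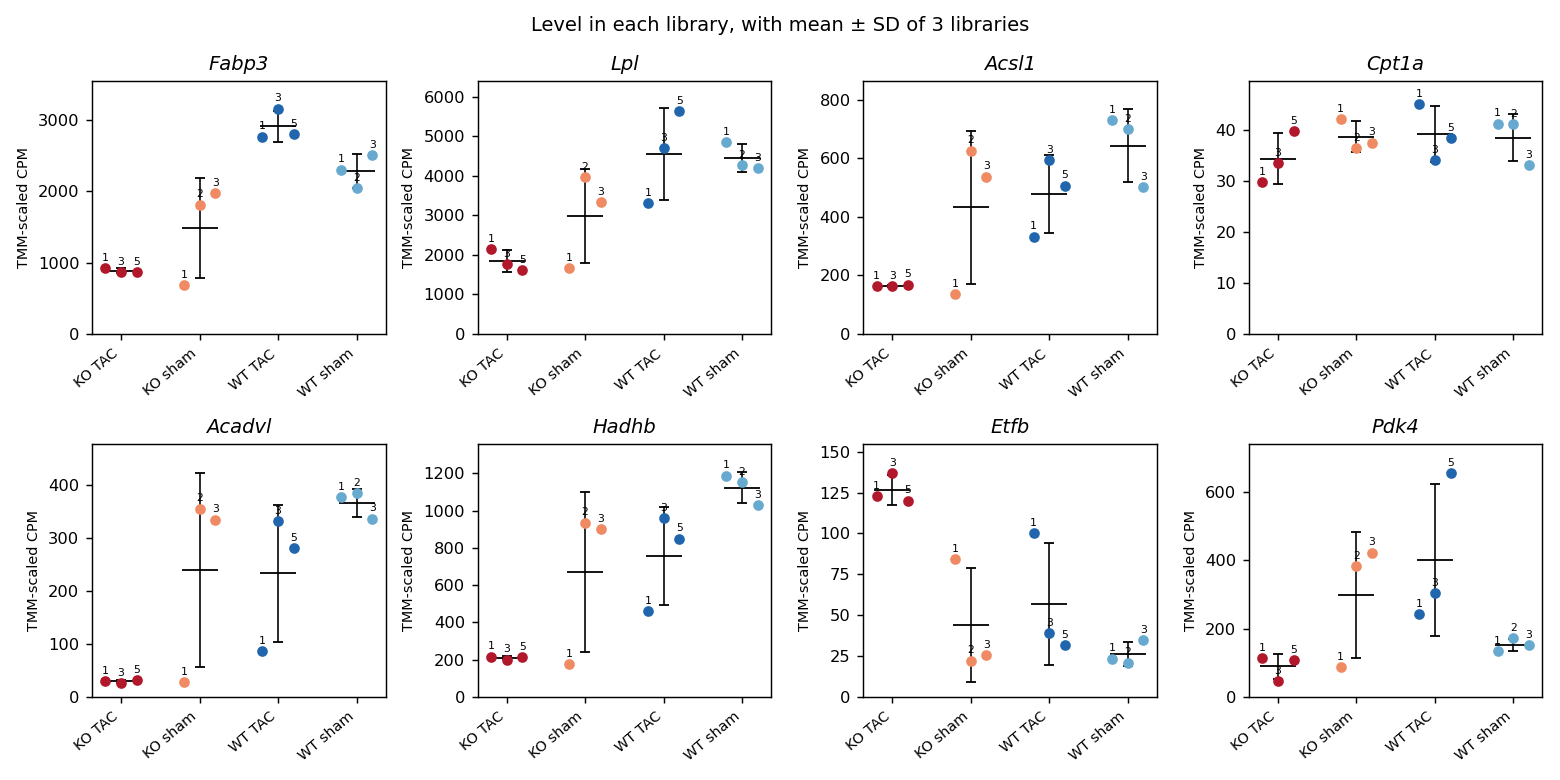
Points are TMM-scaled CPM of 8 of the 32 genes in each library, numbered by replicate, with the mean ± SD of 3 libraries in black. Fabp3, Lpl, Acsl1, Acadvl and Hadhb are low in KO TAC libraries and in KO sham replicate 1, Cpt1a overlaps between all groups, Etfb is high where Acadvl is low, and Pdk4 is highest in WT TAC replicate 5 at 657 CPM.

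In KO hearts, TAC against sham gave 0 calls among the 32 genes in either direction with all 12 libraries, and 0 among all tested genes, a background of 0%. At an unadjusted p under 0.05 the edgeR counts were 22 of the 32 and 4878 of all 15804 tested genes, while DESeq2 at its adjusted p called 14 of the 32 lower and 1 higher, against 1143 lower and 614 higher of all 32078 genes it took. The median log2 fold change of the 32 was −0.85, with 29 negative, against −0.02 over all genes. Acadvl stood at −3.05 ± 0.74, Etfdh at −2.02 ± 0.54 and Etfa at −1.70 ± 0.48 (edgeR adjusted p = 0.103 each) and for each of them KO sham replicate 1 lay within or below the range of the KO TAC libraries. Eci2, at −0.95 ± 0.25, did not overlap between KO TAC and KO sham libraries but also had an adjusted p of 0.103 in edgeR. Of the 32 genes 3 were lower and 2 higher without overlap, a share close to the 10.8% and 11.6% of all tested genes. Without KO sham replicate 1, 25 of the 32 fell and 1, Etfb, rose, where 25.2% of 16196 tested genes fell and 22.4% rose. The median of the 32 was then −1.20, with Acadvl at −3.58, Etfdh at −2.50, Etfa at −2.14, Eci2 at −1.25 and Etfb at 2.40. That fit has 2 KO sham libraries. Leaving out a KO sham library that lay near KO TAC by itself widens the difference and narrows the spread. These calls are therefore no separate support.

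In WT hearts, TAC against sham gave 0 calls among the 32 genes, where 0.0253% of all tested genes rose and 0.00633% fell. The edgeR count at an unadjusted p under 0.05 was 3 of the 32 and 2562 of all 15804 genes. DESeq2 called 1 of the 32 higher, and 238 of all 32078 genes it took higher and 228 lower. The median log2 fold change was −0.10. The smallest p-values belonged to genes with positive values: Acot13 at 0.61 ± 0.16, Ucp3 at 0.80 ± 0.26, Pdk4 at 1.40 ± 0.55 and Etfb at 1.11 ± 0.52, with edgeR adjusted p of 0.159, 0.197, 0.254 and 0.313 in that order. WT TAC libraries lay above all WT sham libraries for 3 of the 32 genes, Fabp3, Acot13 and Pdk4, where 13.4% of all tested genes did. Hadha at −0.68, Hadh at −0.66, Acadvl at −0.65, Acadm at −0.62 and Hadhb at −0.57 also did not overlap between WT TAC and WT sham libraries, where 13.7% of all tested genes were lower without overlap, and none passed. Without KO sham replicate 1, Pdk4 and Acot13 rose (edgeR adjusted p = 0.043 and 0.0329), where 3.4% of all tested genes rose. With WT TAC replicate 1 left out as well, 2 of the 32 fell and 1 rose, where 2.79% and 3.39% of 16007 tested genes did.

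**Figure D4:**
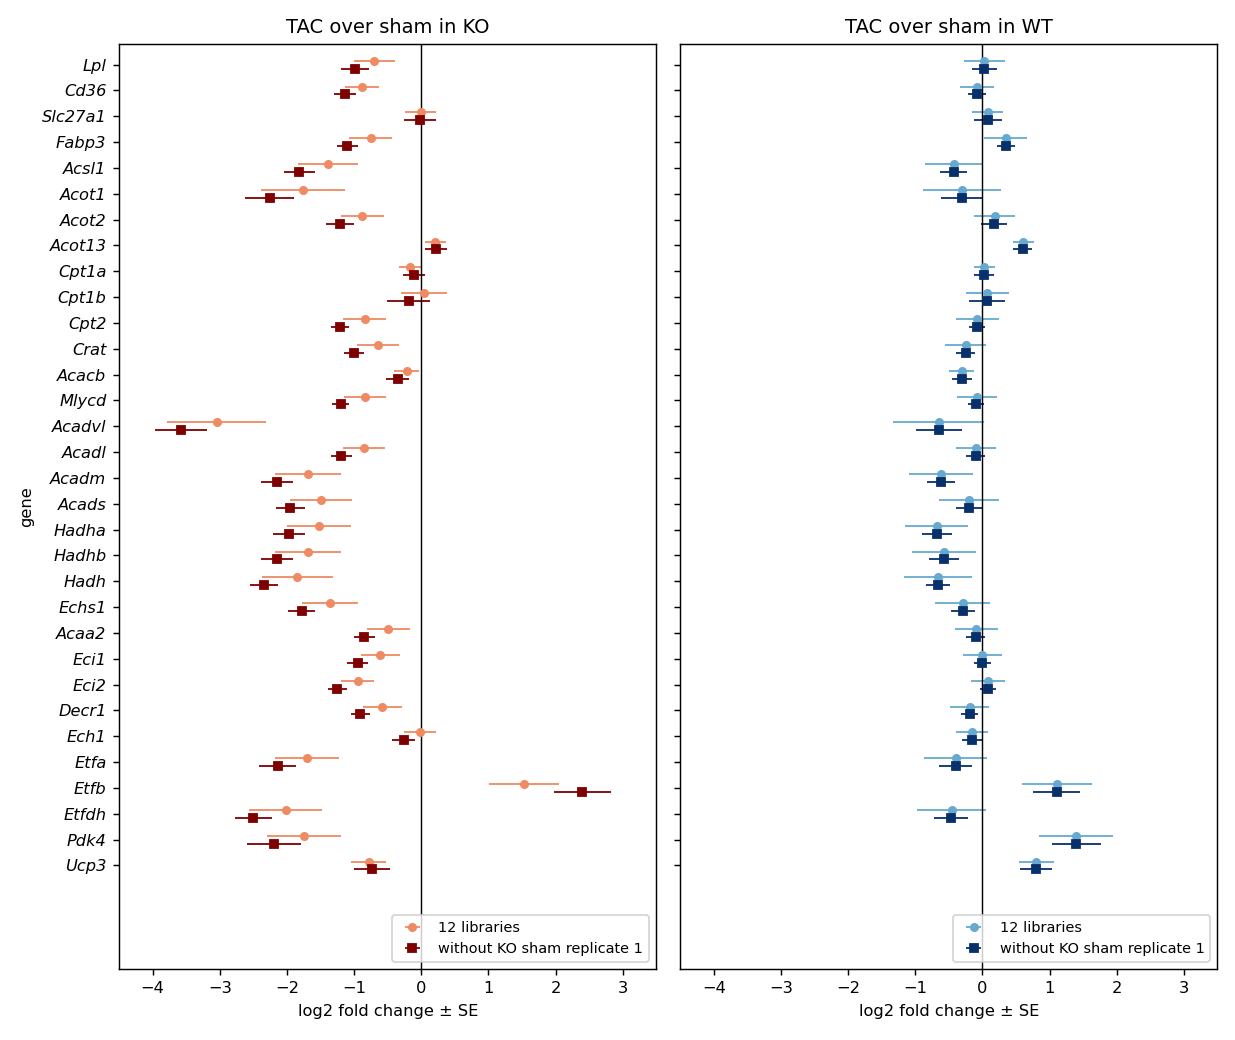
The left panel gives the log2 fold change ± SE of each of the 32 genes in KO TAC over KO sham hearts and the right panel that in WT TAC over WT sham hearts, from the fit of 12 libraries (circles) and without KO sham replicate 1 (squares). Most genes lie left of 0 in KO, with Acadvl at −3.05, and nearer to 0 in WT, with Pdk4 at 1.40 on the right.

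The difference between the TAC effects of the genotypes (KO minus WT), tested as an interaction, gave 0 calls among the 32 and 0 among all tested genes, a background of 0%. At an unadjusted p under 0.05 the edgeR count was 7 of the 32 and 1452 of all genes, and DESeq2 called 2 of the 32 lower, against 37 lower and 44 higher of all 32078 genes. Ucp3 had the smallest p of the 32 at −1.58 ± 0.36 (edgeR adjusted p = 0.297), then Pdk4 at −3.15 ± 0.78 (0.321), Eci2 at −1.03 ± 0.35 (0.478) and Acadvl at −2.40 ± 0.97 (0.523). Without KO sham replicate 1, 25 of the 32 had a lower TAC effect in KO than in WT, where 7.45% of all tested genes did and 4.66% had a higher one. Pdk4 was then at −3.59 and Ucp3 at −1.54, with the limit given above for leaving that library out. With WT TAC replicate 1 left out as well, 25 had a lower and 1 a higher TAC effect in KO, where 20.2% and 15.9% of all tested genes did. With all 12 libraries a difference between the genotypes in their response to TAC was thus not called for any of the 32 by edgeR.

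Between sham hearts, KO against WT gave 0 calls among the 32, where 0% of all tested genes rose and 0.00633% fell. The edgeR count at an unadjusted p under 0.05 was 2 of the 32 and 2138 of all 15804 genes. DESeq2 called 0 of the 32, and 117 of all 32078 genes higher and 66 lower. The median log2 fold change was −0.49, and −0.14 without KO sham replicate 1. The smallest p-values were those of Cpt1b at −0.89 ± 0.33, Ech1 at −0.64 ± 0.25, Acacb at −0.40 ± 0.19 and Fabp3 at −0.62 ± 0.32, with edgeR adjusted p of 0.313, 0.318, 0.377 and 0.401 in that order. Every KO sham library lay below every WT sham library for 15 of the 32 genes, Cpt1b, Ech1 and Fabp3 among them, and above every one for 1, where the background was 10.4% and 12.2% of all tested genes. Without KO sham replicate 1 there were again 0 calls among the 32, where 0.0803% of all tested genes rose and 0.161% fell. Without WT TAC replicate 1 as well there were also 0, where 0.843% rose and 1% fell.

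Genes around this pathway were also compared between KO and WT after TAC. The background is again 11.7% of all tested genes that fell and 8.63% that rose. Of 7 tested carnitine and membrane transport genes 2 fell: Slc25a20, the carnitine-acylcarnitine carrier of the inner mitochondrial membrane, at −1.90 ± 0.45, and Angptl4, a secreted inhibitor of lipoprotein lipase, at −1.63 ± 0.34. Of 11 other synthetases and thioesterases 1, Them4, fell. Of 16 other mitochondrial acyl-CoA enzymes 8 fell, among them Hsdl2 at −2.20 ± 0.52 and Hsd17b10 at −1.11 ± 0.24, and 1 rose, Echdc2, at 1.31 ± 0.35. In the peroxisome, which shortens very long chains, 6 of 14 tested genes fell, with Amacr at −1.88 ± 0.43, Hsd17b4 at −1.48 ± 0.34 and Ehhadh at −1.06 ± 0.21. Of 18 genes of lipid storage and lipolysis 7 fell, with Plin5, the droplet protein that meets mitochondria, at −2.07 ± 0.43, and 1 rose, Cidec. Cidec was low in all of them, with 3.79, 2.35 and 1.90 CPM in KO TAC and 0.0492, 0.0537 and 0.218 CPM in WT TAC libraries. It is also among the white adipocyte markers below. The medians of these 5 lists were −0.07, −0.28, −0.89, −0.70 and −0.96 in that order, against −0.02 over all tested genes.

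Among 21 regulators of these genes 2 fell, a share close to that background, Esrrb at −1.39 ± 0.30 and Prkaa2, a catalytic subunit of AMP-activated kinase, at −2.06 ± 0.60. The named regulators of the pathway did not pass. Ppara, which encodes PPAR-alpha, had 2.41, 4.15 and 4.79 CPM in KO TAC and 2.53, 14.2 and 11.4 CPM in KO sham libraries. It had 6.00, 9.89 and 9.26 CPM in WT TAC and 25.3, 26.1 and 8.70 CPM in WT sham libraries, and the TAC groups did not overlap. The log2 fold change between KO and WT after TAC was −1.15 ± 0.57 for Ppara (edgeR adjusted p = 0.149), −0.60 ± 0.21 for Esrra (0.0616) and −0.77 ± 0.52 for Ppargc1a (0.276). Without KO sham replicate 1, 8 of the 21 regulators fell, where 22.1% of all tested genes did, Ppara and Esrra with adjusted p of 0.0349 and 0.00866, and Ppargc1a had 0.0516.

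Part of the cardiomyocyte markers differed between the same libraries. Of 17 such markers 8 fell, 9 did not pass and 0 rose between KO and WT after TAC, with a median of −0.60. Without KO sham replicate 1, 12 of them fell, where 22.1% of all tested genes did. They summed to 50537, 53759 and 52117 CPM in KO TAC, 39661, 76192 and 70397 CPM in KO sham, 76948, 82672 and 82145 CPM in WT TAC and 86597, 84720 and 83533 CPM in WT sham libraries. Per 100 of these marker counts the 32 genes held 14.6, 13.0 and 13.3 counts in KO TAC libraries and 15.3, 22.1 and 22.7 in KO sham libraries, against 18.5, 23.9 and 23.4 in WT TAC and 22.9, 21.8 and 22.4 in WT sham libraries. The KO TAC libraries did not overlap with the WT TAC libraries in this ratio, and the part of these markers in the results was not tested. Within the marker list, Ckm at −2.17, Actc1 at −1.84 and Mb at −1.80 fell, while Myl2 at −0.06, Ttn at −0.02 and Tnni3 at −0.01 did not pass.

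**Figure D5:**
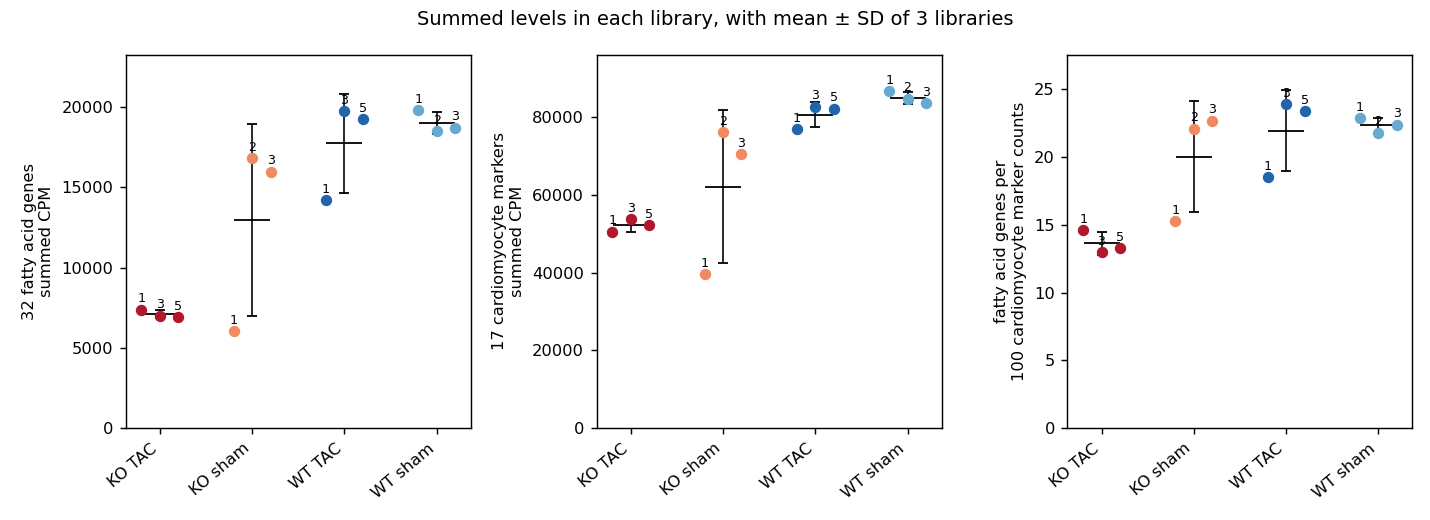
The panels give, for each library, the summed TMM-scaled CPM of the 32 fatty acid genes, the summed CPM of 17 cardiomyocyte markers, and the counts of the fatty acid genes per 100 marker counts, with the mean ± SD of 3 libraries in black. KO TAC libraries lie at 13.0 to 14.6 per 100 marker counts, and WT TAC libraries at 18.5 to 23.9.

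Other markers differed between the same libraries, and their part in the results was not tested. Transcripts of the mitochondrial genome took 51.3%, 48.4% and 44.0% of counts in KO TAC and 51.0%, 31.6% and 30.5% in KO sham libraries, against 24.8%, 31.5% and 32.5% in WT TAC and 36.0%, 35.1% and 36.9% in WT sham libraries, and 2 of 13 rose between KO and WT after TAC. With scaling computed without these transcripts, the count of the 32 that fell was again 21, where 1878 of all 15804 tested genes fell and 1339 rose. Of 7 atrial markers 6 rose, and they summed to 2522, 705 and 1612 CPM in KO TAC, 3141, 444 and 297 CPM in KO sham, 386, 267 and 560 CPM in WT TAC and 101, 1860 and 189 CPM in WT sham libraries. Of 8 tested white adipocyte markers 5 rose, and the list summed to between 65.1 and 100 CPM in KO TAC, 45.4 and 78.8 CPM in KO sham, 57.1 and 86.3 CPM in WT TAC and 38.5 and 47.2 CPM in WT sham libraries. Adipoq, the adipocyte hormone adiponectin, had 2.97, 2.97 and 3.28 CPM in KO TAC libraries and ran from 0 to 0.269 CPM in WT TAC libraries. Brown adipocyte markers gave 0 higher and 1 lower of 4 tested, and Ucp1 was at 0.137 CPM or less in every library. The counts that rose and fell were 1 and 0 of 10 endothelial, 2 and 0 of 10 fibroblast, 0 and 2 of 11 macrophage and 1 and 0 of 5 tested skeletal muscle markers, of which Myh4 had 0 counts in every library. With KO sham replicate 1 left out, 11 of the 13 mitochondrial genome transcripts and 5 of the 10 endothelial markers rose, and 0 of either fell. In that fit 18.5% of all tested genes rose and 22.1% fell.

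Within groups the 32 genes were even in KO TAC and WT sham hearts and uneven in the others. The median coefficient of variation was 7.02% in KO TAC, 47.6% in KO sham, 27.8% in WT TAC and 7.39% in WT sham hearts. It was 3.74% in KO sham without replicate 1 and 10.8% in WT TAC without replicate 1. Over the 32 genes, Spearman's rho of the KO against WT fold change after TAC was 0.05 with transcript length and 0.38 with GC content, against 0.13 and 0.07 over 13477 tested coding genes. Genes of 1 pathway measured in the same libraries are not independent, so these are descriptions.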

How the data were processed

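Per the labels' protocols, poly(A) RNA of 12 mouse hearts was read as 150 bp pairs. HISAT2 is named in the submitters' processing notes, without a version. Neither the counting program nor the genome build, annotation or strand use is stated (not given in the sources used here). As deposited, the values are whole read counts of Ensembl genes that the authors did not normalize. All 12 columns were used, and 52081 of 55357 identifiers matched a symbol in GENCODE (GRCm38).

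The main test was edgeR's robust quasi-likelihood test (edgeR 4.0.16, R 4.3.3) after TMM scaling and filterByExpr by group, with 1 coefficient for each group, which leaves 8 residual degrees of freedom. P-values were Benjamini-Hochberg adjusted over 15804 genes with a threshold of 0.05. There were 5 comparisons: KO against WT after TAC and after sham, TAC against sham in KO and in WT, and the interaction. The code was tested on simulated counts. Alternatives were DESeq2 1.42.0, limma-voom (limma 3.58.1) with sample weights, other scalings and filters, a replicate block, only the groups compared, and each library left out. Total counts limit precision, and no interval covers more than the spread between libraries.

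The 32 genes, the 6 related lists and the 9 marker lists were chosen with earlier results of these data known. By a fixed rule, values per library are given for the 4 of the 32 genes with the smallest p in each comparison and 1 per role. Of each related list, genes among the 4 with the smallest p were named, plus Ppara, Ppargc1a, Esrra and Cd163. Members of the marker lists named beside them, and other values per library, were chosen after their values were seen. All replicate pairs differed by more than counting noise.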

Additional observations from a re-analysis of the deposited data

How the results depend on the processing

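Between KO and WT after TAC, the count of the 32 genes that fell was 21 with all 12 libraries and 14 to 26 with another scaling, filter or tool, or with only the groups compared (25). It ran from 0 to 28 when libraries were left out in turn and was 28 with replicate 1 of KO sham and of WT TAC both left out. The count that rose was 0, and 1 with limma-voom, with only the groups compared and without those libraries together. Leaving out each library gave 0 to 1 that rose. Over all genes, limma-voom called 3969 lower and 3646 higher of 15804, and DESeq2 2509 and 2076 of 32078. Without a filter on low counts the counts were 1701 and 1148 of 32090, and with only the groups compared 2510 and 2000 of 14921. Without both libraries they were 4430 and 4184 of 16007. Leaving out each library gave 11 to 3582 lower and 32 to 3003 higher. For TAC against sham in KO the counts that fell and rose were 0 and 0 with 12 libraries, 14 and 1 with DESeq2, 25 and 1 with limma-voom, 2 and 0 without a filter on low counts, and 24 and 1 without both libraries. Over all genes the last 3 settings called 5059 lower and 4892 higher of 15804, 535 and 152 of 32090, and 4593 and 4286 of 16007. Leaving out each library gave 0 to 25 that fell and 0 to 1 that rose, and over all genes 0 to 4074 lower and 0 to 3634 higher. Only the fit without KO sham replicate 1 gave calls among the 32. For TAC against sham in WT they were 0 and 0, with 1 that rose in DESeq2 and in limma-voom. Of all 15804 genes limma-voom called 494 lower and 580 higher. Without both libraries 2 fell and 1 rose. Leaving out each library gave 0 to 2 that rose, and over all genes 0 to 508 lower and 1 to 550 higher. The 2 came without KO sham replicate 1. For KO against WT after sham the counts were 0 and 0. With limma-voom they were 3 and 1, where it called 1185 lower and 1173 higher of all 15804. For the interaction the counts were 0 and 0 with 12 libraries and 2 and 0 with DESeq2. They were 25 and 1 with limma-voom (2699 lower and 2331 higher of all 15804) and also without both libraries. Without a filter they were 1 and 0 (20 lower and 23 higher of all 32090). On leaving out each library 0 to 25 were lower, and over all genes 0 to 1207 were lower and 0 to 754 higher. The 25 came without KO sham replicate 1. The cause of these moves was not tested. No called gene among the 32 changed sign under any of these settings.

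Over 14 pairs of libraries with the same replicate number, the correlation of their deviations from group means ran from −0.194 to 0.618. The highest was that of WT TAC replicate 1 with KO sham replicate 1, the libraries that stood apart. Pairs with different numbers were not compared, so whether the numbers pair the libraries was not tested. With the replicate number as a block, 19 of the 32 fell between KO and WT after TAC and 0 rose. Of all 15804 tested genes 1226 fell and 1185 rose there. No other comparison gave a call among the 32 with that block. The interaction could not be fitted with only the groups compared, since it uses all 4. Genes at low counts, such as Acot1 and Cpt1b, carry more counting noise for their level, but their SE was not the largest. Between KO and WT after TAC it was 0.63 for Acot1 and 0.33 for Cpt1b, against 0.73 for Acadvl.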
